A study of Mus musculus with 6 samples.

Results

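Cytochrome P450 (Cyp) genes were examined for the contacts of their promoters in mouse embryonic stem cells depleted of either of 2 chromatin remodellers. The genes were all protein-coding RefSeq genes whose symbol is Cyp followed by a family number, a subfamily letter and a gene number, which gave 93 of 21900 genes. A bait, the captured fragment at one end of every listed contact, was assigned to a gene where it overlapped the gene body extended by 2 kb on each side. By this rule 71 of the 93 genes had a listed bait, and 77 of 19083 baits were Cyp baits, of which 59 held or lay within 2 kb of a start of the gene. The Cyp2c37 bait had no intrachromosomal loop. The bait of Cyp27b1 also lay within 2 kb of Mettl1, that of Cyp26c1 within 2 kb of Exoc6, and Cyp2c38 and Cyp2c39 shared 1 bait. The contacts of such a bait cannot be told apart by gene. Cyp2c39 also had another bait of its own. The Cyp baits carried 289 distinct intrachromosomal loops of 49576 in the series, listed 439 times over 6 libraries.

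Cytochromes P450 are heme enzymes that insert an oxygen atom into a substrate. In mammals the first families mostly oxidise drugs and other foreign compounds in the liver, while others make or break down steroid hormones, bile acids, vitamin D, retinoic acid and fatty acids. Many of the first kind, and many fatty acid hydroxylases, lie in arrays that arose by tandem duplication, whereas genes such as Cyp7a1 and Cyp19a1 stand alone. In embryonic stem cells most of them are not known for activity, apart from the retinoic acid hydroxylases of the Cyp26 subfamily, which clear the differentiation signal retinoic acid.

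All cells were wild-type E14 (E14TG2a) mouse embryonic stem cells, grown without a feeder layer named in the labels and taken 48 h after transfection with an esiRNA pool, short RNAs cut from a longer double strand. The pool targeted EGFP in Control, Smarca4, which encodes the Brg1 ATPase of the BAF remodeller, in Brg1KD, and Ino80, the ATPase of the INO80 remodeller, in Ino80KD. Each group had 2 libraries of promoter-capture Micro-C, which ligates nearby nucleosome-sized pieces of cross-linked chromatin and captures those at promoters. Batch 1 held replicate 1 of all groups, batch 2 held Control replicate 2, and batch 3 held replicate 2 of both depletions. A knockdown is a partial and transient loss, and contact lists hold no RNA, so neither the depletion nor the cell type could be read from expression. The labels do not state whether the replicates are separate cultures, and p-values then measure only the spread between these libraries, which may be technical.

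A loop here is a bait and another end that the authors listed for a library with an interaction score of 5 or more. The most listed bait, on chromosome 2, was left out. It had 6693 listings over the 6 libraries, 385 of them intrachromosomal. Without it, the lists held 15322 and 14394 intrachromosomal loops in Control, 12254 and 12962 in Brg1KD, and 14675 and 14113 in Ino80KD. The read depth is unknown. Of 7 embryonic stem cell genes (Pou5f1, Nanog, Sox2 and others) 6 had a bait, with 9 and 6 loops in Control, 6 and 4 in Brg1KD, and 18 and 11 in Ino80KD. Of 5 hepatocyte genes 3 had a bait, with 2 and 3 loops in Control and 0 in the 4 depletion libraries. The 4 fibroblast genes had between 1 and 4 loops in each library. These counts are of contacts, and their part in the results below was not tested.

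The Cyp genes were split by position into runs of 3 or more neighbours with gaps of at most 500 kb (66 genes in 8 runs, 60 baits), pairs (4 genes, 2 baits) and single genes (23 genes, 15 baits). Loops at run genes numbered 56 and 49 in Control, 47 and 55 in Brg1KD, and 50 and 63 in Ino80KD. Loops at single genes numbered 27 and 20 in Control, 17 and 14 in Brg1KD, and 15 and 19 in Ino80KD. Both Control libraries thus had more single-gene loops than any depletion library, while the run counts of the groups overlapped.

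The run from Cyp2s1 to Cyp2t4 on chromosome 7 (chr7:25802469-27158564, mm10; 13 genes, 10 with a bait) held the most loops. It carries genes of the Cyp2a, Cyp2b, Cyp2f, Cyp2g, Cyp2s and Cyp2t subfamilies. Its baits had 21 and 22 loops in Control, 21 and 24 in Brg1KD, and 20 and 32 in Ino80KD, 140 of the 439 listings. Ino80KD replicate 2 stood above the other 5 libraries, which lay between 20 and 24.

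The loops of this run that were listed in 4 or more libraries numbered 5, of which 2 came from the bait of Cyp2f2, a lung and liver enzyme, 2 from that of Cyp2t4 and 1 from that of Cyp2s1. One loop each of Cyp2f2 and Cyp2t4 ended at Cyp2b19, an epidermal enzyme. The promoter windows of these 3 genes are shown because those loops link the baits of Cyp2f2 and Cyp2t4 with the Cyp2b19 gene. The bait of each gene covers its window. The loops end over the gene body of Cyp2b19, outside its bait and its printed window. The sequences are from RefSeq (GRCm38.p6, whose chromosomes are those of mm10), 250 bases before to 50 after the start, on the plus strand at chr7:27119705-27120004, chr7:27153464-27153763 and chr7:26756892-26757191. Capitals mark matches to AGGTCA or its reverse complement TGACCT, the core of many nuclear receptor sites.
Cyp2f2: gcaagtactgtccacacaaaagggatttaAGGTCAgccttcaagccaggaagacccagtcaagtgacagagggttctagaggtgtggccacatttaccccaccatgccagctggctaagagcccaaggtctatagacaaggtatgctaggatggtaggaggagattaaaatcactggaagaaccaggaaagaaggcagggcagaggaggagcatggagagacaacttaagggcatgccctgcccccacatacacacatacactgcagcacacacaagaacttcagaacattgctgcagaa
Cyp2t4: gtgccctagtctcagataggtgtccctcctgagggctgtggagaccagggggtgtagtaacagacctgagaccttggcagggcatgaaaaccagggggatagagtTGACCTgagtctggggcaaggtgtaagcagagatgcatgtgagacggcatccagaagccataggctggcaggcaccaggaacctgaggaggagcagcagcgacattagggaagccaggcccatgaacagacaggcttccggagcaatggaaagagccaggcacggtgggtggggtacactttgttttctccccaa
Cyp2b19: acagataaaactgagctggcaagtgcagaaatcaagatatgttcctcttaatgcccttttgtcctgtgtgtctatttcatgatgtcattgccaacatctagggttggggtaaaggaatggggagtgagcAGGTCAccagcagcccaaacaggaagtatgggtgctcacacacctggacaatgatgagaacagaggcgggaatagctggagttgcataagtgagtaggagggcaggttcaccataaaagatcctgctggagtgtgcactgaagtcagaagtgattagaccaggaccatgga
The core stood 221 bases before the start of Cyp2f2, 145 before that of Cyp2t4 (as TGACCT) and 121 before that of Cyp2b19. A match describes these letters and is not a binding site. The windows of Cyp2a12, Cyp2a22 and Cyp2b10, whose baits also had loops to Cyp2b19, held no match to this core. Those of Cyp2b13, Cyp2b9 and Cyp2a4, which had no listed bait, held it. The core was thus not particular to the genes joined by these loops.

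The Cyp2f2 bait was linked to the window chr7:26760001-26780000, which overlaps Cyp2b19 and lies 349 kb away, in all 6 libraries. The authors' scores of this loop were 5.05 and 6.33 in Control, 13.89 and 8.51 in Brg1KD, and 10.65 and 5.30 in Ino80KD. Scores come from lists called one by one, so they are given without a comparison. The Cyp2t4 bait reached the same window (384 kb) in both Control libraries (8.61 and 7.40) and both Ino80KD libraries (6.37 and 7.14), and it was not listed there in either Brg1KD library. Cyp2f2 had 5 and 6 loops in Control, 2 and 7 in Brg1KD, and 6 and 6 in Ino80KD. Cyp2t4 had 5 and 3, then 2 and 0, then 4 and 6. For Cyp2t4 the Brg1KD libraries lay below the other 4, and for Cyp2f2 the groups overlapped.

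Baits of several members of this run were linked to the same windows, counted over all libraries. Such listings can come from different libraries, and the sharing expected among loops packed into a run was not computed. The 20 kb window at Cyp2b19 was reached from 5 member genes (Cyp2a12, Cyp2a22, Cyp2b10, Cyp2f2 and Cyp2t4), with 2 and 2 listings in Control, 4 and 3 in Brg1KD, and 2 and 2 in Ino80KD. The window at Cyp2f2 (chr7:27120001-27140000) was reached from 5 genes, with 1 and 1 listings in Control, 3 and 2 in Brg1KD, and 2 and 3 in Ino80KD. The window at Cyp2b10 (chr7:25920001-25940000), the mouse gene induced by phenobarbital, was reached from 7 genes, with 8 listings in 4 libraries. Of the 95 distinct loops of the run, 96.8% had both ends inside it.

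**Figure D1:**
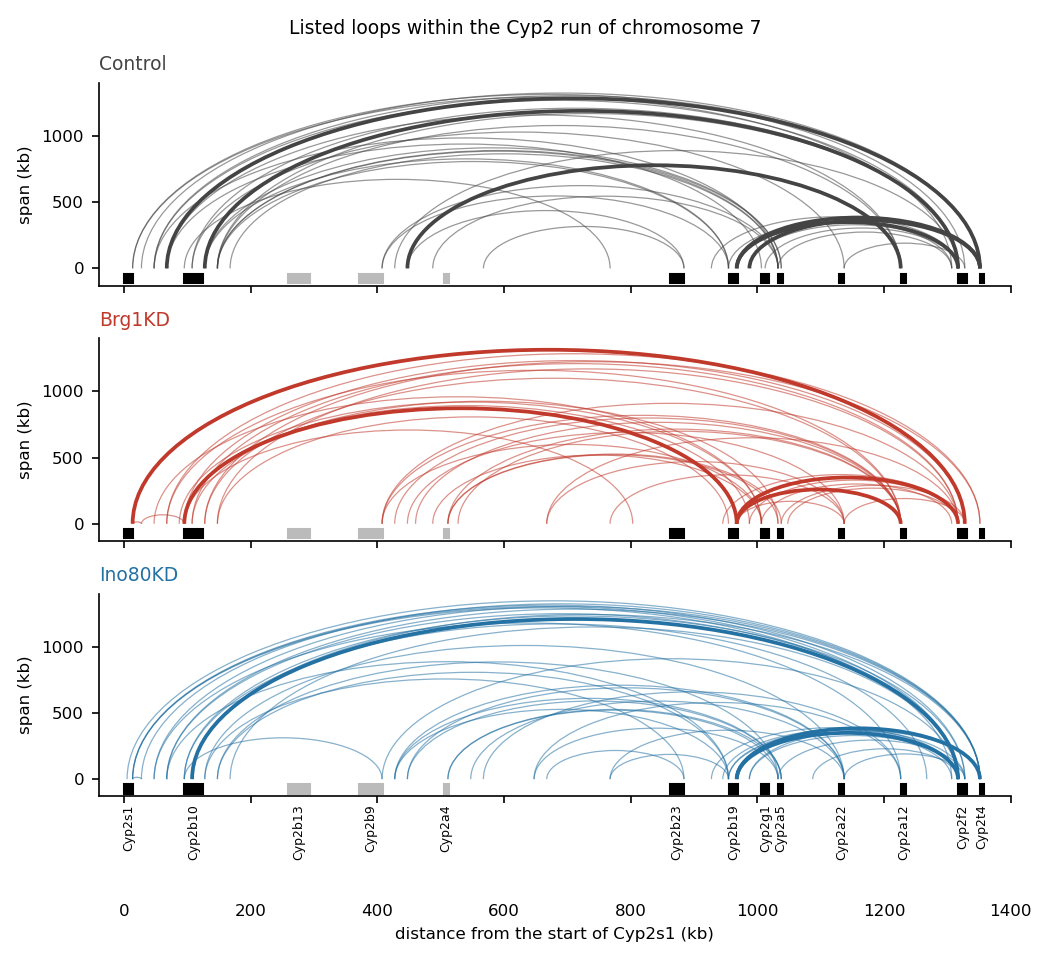
Loops within the Cyp2 run of chromosome 7, 1 panel per group, drawn as arcs whose height is the span in kb over the distance in kb from the start of Cyp2s1; thick arcs were listed in both libraries of the group, thin arcs in 1, and boxes are genes, black with a listed bait and grey without. Arcs in every group join the Cyp2b19 region with Cyp2f2, arcs in Control and Ino80KD join it with Cyp2t4, and long arcs cross the grey genes Cyp2b13, Cyp2b9 and Cyp2a4.

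The Cyp2d run on chromosome 15 (chr15:82370527-82794452, 8 genes, all with a bait) has the drug-oxidising CYP2D6 as its human counterpart. The baits of this run had 13 and 11 loops in Control, 5 and 9 in Brg1KD, and 11 and 10 in Ino80KD. Both Brg1KD libraries lay below the other 4. The window chr15:83040001-83060000, outside the run and holding no protein-coding gene, was reached from 7 of the 8 genes, with 3 and 0 listings in Control, 2 and 2 in Brg1KD, and 6 and 1 in Ino80KD. Of the 35 distinct loops of the run, 54.3% had both ends inside it. This run is 424 kb wide with a median span of 377 kb, and the chromosome 7 run is 1356 kb wide. A loop longer than a run cannot stay inside it, so the inside shares of the 2 runs are not compared. Cyp2d10 had 3 and 6 loops in Control, 1 and 5 in Brg1KD, and 3 and 3 in Ino80KD, which overlap.

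The Cyp2c run on chromosome 19 (14 genes, 12 with a bait), whose products oxidise drugs and arachidonic acid, had 4 and 8 loops in Control, 5 and 7 in Brg1KD, and 8 and 8 in Ino80KD. The Cyp3a run on chromosome 5 (6 genes), named for the main drug-oxidising subfamily, had 7 and 2, then 3 and 2, then 3 and 2. The Cyp4x1 to Cyp4b1 run on chromosome 4 (7 genes), which holds the fatty acid hydroxylases of the Cyp4a subfamily, had 2 and 1, then 2 and 6, then 5 and 5. The Cyp4f run on chromosome 17 (8 genes), which acts on leukotrienes, had 3 and 1, then 4 and 1, then 1 and 1. The Cyp2j run on chromosome 4 (7 genes), whose products epoxidise arachidonic acid, had 2 and 3, then 0 and 1, then 1 and 2. In these runs the Brg1KD counts lay below both Control counts for Cyp2j and overlapped or touched them in the other 4. The Ino80KD counts lay above both Control counts for the Cyp4x1 to Cyp4b1 run. With 9 to 40 listings per run, 1 or 2 loops decide such an order.

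**Figure D2:**
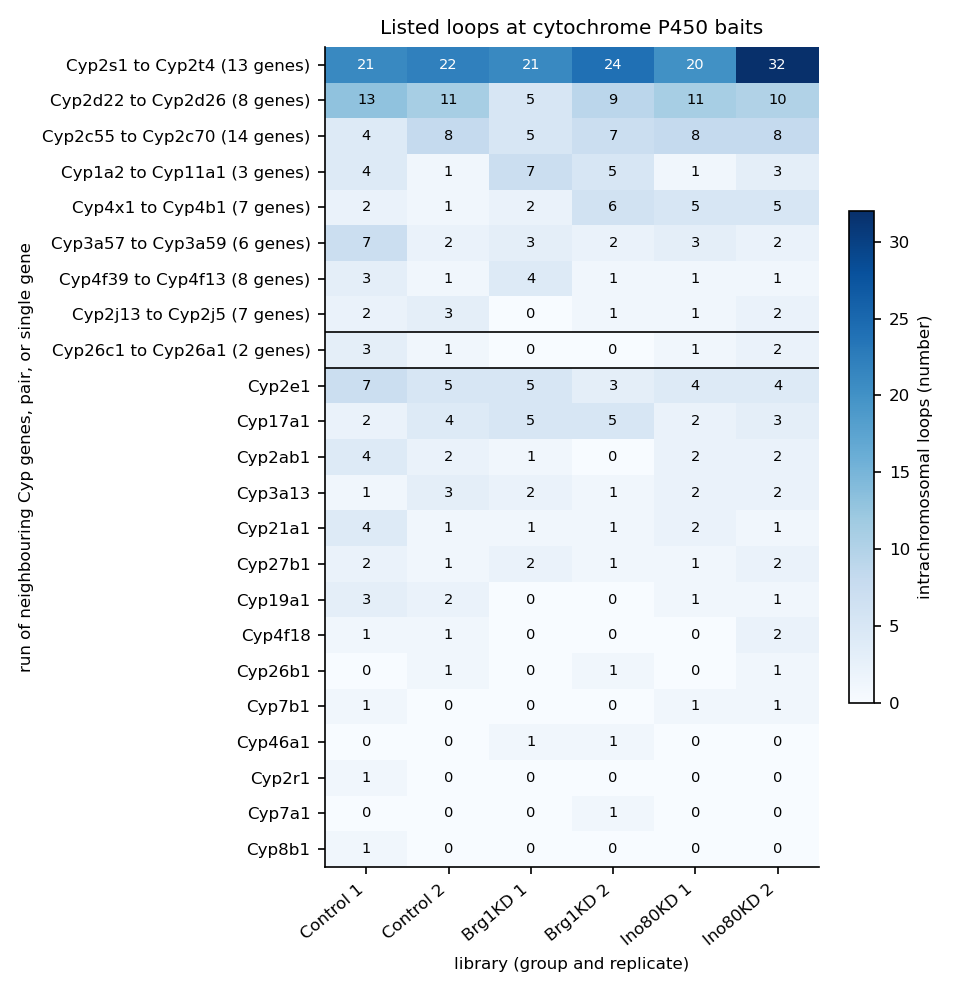
Number of listed intrachromosomal loops at Cyp baits per library (columns) for runs, the pair and single genes (rows, separated by lines); units with no listed loop are not drawn. The Cyp2s1 to Cyp2t4 run holds 20 to 32 loops in each library, and most single genes hold fewer than 5.

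Among the xenobiotic genes that stand alone, Cyp2e1, the ethanol-inducible enzyme, had the most loops. It had 7 and 5 loops in Control, 5 and 3 in Brg1KD, and 4 and 4 in Ino80KD. Its median span was 522 kb. Both Ino80KD counts lay below both Control counts. Cyp3a13 was linked to a window in its own gene body (11.6 kb) in all 6 libraries, with scores of 12.12 and 10.35 in Control, 8.90 and 11.16 in Brg1KD, and 12.07 and 8.41 in Ino80KD. Cyp2ab1, chosen after its values were seen, had 4 and 2 loops in Control, 1 and 0 in Brg1KD, and 2 and 2 in Ino80KD. One of its baits reached chr16:20480001-20498196 in both Control and both Ino80KD libraries and in neither Brg1KD library.

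The steroid hormone genes (6 genes, 4 with a bait) had 13 and 8 loops in Control, 13 and 11 in Brg1KD, and 6 and 8 in Ino80KD. Cyp11a1, which cuts the side chain of cholesterol in the first step of steroid synthesis, had 4 and 1 loops in Control, 7 and 5 in Brg1KD, and 1 and 3 in Ino80KD, summed over 3 baits. These are all loops of the run from Cyp1a2 to Cyp11a1 on chromosome 9 (3 genes), since Cyp1a1 and Cyp1a2, the enzymes induced by dioxin, had no listed bait. Cyp17a1, the steroid 17-hydroxylase and lyase, had 2 and 4, then 5 and 5, then 2 and 3. For these 2 genes both Brg1KD libraries lay above the other 4. The Cyp17a1 bait reached a window at Cnnm2 (197 kb), a gene of magnesium transport, in all 6 libraries, and a window at As3mt and Cnnm2 (76.8 kb) in 5. Cyp21a1, the steroid 21-hydroxylase, had 4 and 1, then 1 and 1, then 2 and 1.

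Cyp19a1, the aromatase that makes oestrogens, went the other way, with 3 and 2 loops in Control, 0 and 0 in Brg1KD, and 1 and 1 in Ino80KD. All 4 depletion libraries lay below both Control libraries. Its loop to Gldn (137 kb) was listed in both Control libraries (7.20 and 5.57) and both Ino80KD libraries (5.56 and 5.59) and in neither Brg1KD library. Aromatase has several alternative promoters. The bait covers the start whose RefSeq window is chr9:54193694-54193993 on the minus strand, shown here because the other 2 windows of the gene lie off the bait. Capitals mark TTTATA (reverse complement of TATAAA) and TGAACT (reverse complement of AGTTCA).
Cyp19a1: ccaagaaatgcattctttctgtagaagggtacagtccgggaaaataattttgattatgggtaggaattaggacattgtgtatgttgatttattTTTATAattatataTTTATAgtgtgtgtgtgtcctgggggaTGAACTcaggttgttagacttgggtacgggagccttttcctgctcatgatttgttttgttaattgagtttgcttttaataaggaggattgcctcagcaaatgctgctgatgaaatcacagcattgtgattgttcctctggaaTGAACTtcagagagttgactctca

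The retinoic acid hydroxylases (3 genes, 3 baits) had 3 and 2 loops in Control, 0 and 1 in Brg1KD, and 1 and 3 in Ino80KD. Cyp26a1, the retinoic acid hydroxylase best known from early embryos, had 2 and 1, then 0 and 0, then 1 and 2. Cyp26b1 had 0 and 1 in each group, and Cyp26c1 had 1 loop in Control replicate 1 and 0 elsewhere. The Cyp26a1 bait reached a window at Myof (192 kb), the gene of myoferlin, in both Control libraries (5.05 and 9.31) and both Ino80KD libraries (5.51 and 5.37), and in neither Brg1KD library. The window chr19:37697558-37697857 (plus strand, RefSeq, GRCm38.p6) is shown because of its repeat. Capitals mark the paired TGAACT of TGAACTNNNNNTGAACT, the spacing of a retinoic acid receptor site, and TATAAA.
Cyp26a1: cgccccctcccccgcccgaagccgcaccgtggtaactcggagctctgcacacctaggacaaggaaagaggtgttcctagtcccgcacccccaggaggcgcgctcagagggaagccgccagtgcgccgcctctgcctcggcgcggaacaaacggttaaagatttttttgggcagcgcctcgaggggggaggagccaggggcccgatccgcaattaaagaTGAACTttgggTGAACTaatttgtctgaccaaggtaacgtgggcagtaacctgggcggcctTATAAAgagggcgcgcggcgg
The repeat stood 32 and 21 bases before the start. Both strands were searched, and it was found in 8 of 32851 promoter windows, of which this was the 1 Cyp window.

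The remaining groups had few loops. Cyp27b1, which activates vitamin D in the kidney, had 2 and 1 loops in Control, 2 and 1 in Brg1KD, and 1 and 2 in Ino80KD. The bait it shares with Mettl1 reached chr10:126920001-126940000 (118 kb) in all 6 libraries. Cyp2r1, the liver 25-hydroxylase of vitamin D, had 1 loop, in Control replicate 1. The cholesterol and bile acid genes had 7 listings in all: 3 at Cyp7b1, the oxysterol hydroxylase, 2 at Cyp46a1, the cholesterol hydroxylase of neurons, and 1 each at Cyp7a1, the rate-limiting enzyme of bile acid synthesis, and Cyp8b1. Those of Cyp46a1 were 1 in each Brg1KD library. The fatty acid families had 45 listings from 22 baits, led by Cyp4b1 (1 and 0, then 0 and 2, then 1 and 2), Cyp4a10 (1 and 0, 1 and 1, 0 and 2), Cyp4a14 (0 and 1, 0 and 2, 2 and 0) and Cyp4f18 (1 and 1, 0 and 0, 0 and 2).

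The first comparison set each depletion against Control by the share of the list at Cyp baits, since list lengths differ. Cyp baits held 5.61 and 4.86 loops per 1000 intrachromosomal loops in Control, 5.22 and 5.32 in Brg1KD, and 4.50 and 5.95 in Ino80KD. All 3 groups overlapped. The mean of Brg1KD was 1.01 times that of Control (5.27 ± 0.0710 against 5.24 ± 0.530, SD, n = 2; exact two-sided permutation p = 1), and that of Ino80KD 0.997 times (5.22 ± 1.03, SD, n = 2; exact permutation p = 1). With 2 libraries against 2 the smallest p this test allows is 0.333. Ino80KD was 0.991 times Brg1KD (exact permutation p = 1). In batch 1 alone Brg1KD was 0.931 and Ino80KD 0.801 times Control. Ino80KD against Brg1KD was 0.861 in batch 1 and 1.12 in batch 3.

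After Brg1 depletion the mean share was higher than Control at run genes and lower at single genes, and neither passed the test. Control held 3.65 and 3.40 loops per 1000 at run genes, and Brg1KD held 3.84 and 4.24, which is 1.14 times as many (means 3.53 ± 0.177 and 4.04 ± 0.288, SD, n = 2; exact permutation p = 0.333). Both Brg1KD libraries lay above both Control libraries, which is the most this test can show, and the ratio in batch 1 was 1.05. By plain numbers of loops the order turned, with a ratio of 0.971. In Ino80KD run genes held 3.41 and 4.46 per 1000, 1.12 times Control (exact permutation p = 0.667), and 0.965 times without Ino80KD replicate 2. Single genes held 1.762 and 1.389 per 1000 in Control, 1.387 and 1.080 in Brg1KD, and 1.02 and 1.35 in Ino80KD. The ratios to Control were 0.783 and 0.751 (exact permutation p = 0.333 for each), with the 4 depletion libraries below both Control libraries, although Brg1KD replicate 1 lay just under Control replicate 2. With a run gap of 100 kb the Brg1KD ratio was 1.01. In batch 1 these ratios were 0.787 and 0.580. Ino80KD against Brg1KD was 0.974 at run genes (exact permutation p = 1; 0.888 in batch 1 and 1.05 in batch 3) and 0.960 at single genes (exact permutation p = 0.667; 0.737 and 1.25). The comparisons of each depletion with Control share the Control libraries, so their agreement in direction is not independent.

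**Figure D3:**
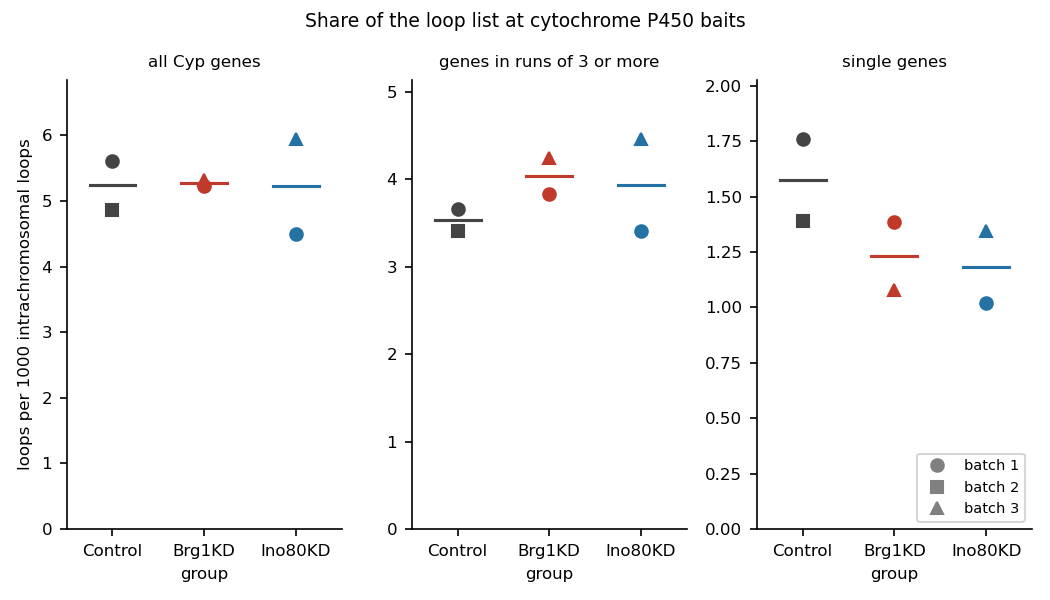
Loops at Cyp baits per 1000 intrachromosomal loops of the library, for all Cyp genes, genes in runs and single genes; each point is a library, its shape the batch, and lines are group means of 2 libraries. For all Cyp genes the groups overlap between 4.50 and 5.95, and for single genes both Control points lie above the depletion points, the lower one (1.389) just above Brg1KD replicate 1 (1.387).

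Counted bait by bait, both Brg1KD libraries had more loops than both Control libraries at 8 of 77 Cyp baits (over all baits, 3.7%) and fewer at 10 (over all baits, 7.15%). The baits with more were those of Cyp17a1, Cyp2a12, Cyp2a22, Cyp2b10, Cyp2c29, Cyp2c66, Cyp2g1 and Cyp46a1. Those with fewer were the baits of Cyp19a1, Cyp26a1, Cyp2a5, Cyp2ab1, Cyp2c70, Cyp2d22, Cyp2d40, Cyp2j5, Cyp2t4 and Cyp4f18. For Ino80KD against Control the numbers were 2 baits with more (over all baits, 4.89%) and 5 with fewer (5.65%), which is near the background. Between the depletions, both Ino80KD libraries had more at 9 Cyp baits (over all baits, 7.11%) and fewer at 8 (3.97%). Cyp baits carried more loops per bait on average than other baits, unevenly between runs, and the part of this in the counts was not tested. The Brg1KD counts ran both ways within the same chromosome 7 run (Cyp2a12, Cyp2a22, Cyp2b10 and Cyp2g1 more, Cyp2a5 and Cyp2t4 fewer).

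Most Cyp loops were listed once. Of the 289, 207 (71.6%) were in a single library and 4 (1.38%) in all 6, against 68.0% and 3.15% of all loops. Loops in 4 libraries numbered 17, and 4 of these were in both Control and both Ino80KD libraries and in neither Brg1KD library (Cyp19a1, Cyp2ab1, Cyp26a1 and Cyp2t4, above), 23.5% against 14.0% of all loops in 4 libraries. Another 2, from Cyp17a1 to As3mt and from Cyp2e1 to 5830411N06Rik, were in both Control and both Brg1KD libraries and in neither Ino80KD library, 11.8% against 5.53%. None was in all 4 depletion libraries and in neither Control library, against 4.58% of all loops in 4 libraries.

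The authors' deposited tables compare each depletion with Control region by region and give a mean normalized signal, a log2 fold change with its standard error, and p-values. The direction is not stated in the headers. A positive value is read here as a gain after depletion, because loops listed only in both depletion libraries were above 0 in 83.7% (Brg1KD) and 86.4% (Ino80KD) of cases in these tables. After adjustment no entry was called in either deposited table, at Cyp baits or elsewhere (0% of 33243 for Brg1KD and 0% of 34774 for Ino80KD, adjusted p under 0.05). The tables also hold weighted p-values, which were identical to the others in every entry of both. With p under 0.05 before adjustment, the authors' deposited table for Brg1KD called 1 of 188 Cyp entries, against 1.2% of all entries, and that for Ino80KD called 0 of 192, against 1.29%. Neither share exceeds the background.

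In the authors' deposited table for Brg1KD, 127 of 188 Cyp entries (67.6%) were above 0 with a median of 0.13, against 48.7% and -0.0084 over all entries. In the deposited table for Ino80KD, 81 of 192 (42.2%) were above 0 with a median of -0.067, against 50.4% and 0.0023. The regions of a bait overlap, so entries are not independent. With 1 value per run or single gene the Brg1KD median was 0.064, with 14 of 21 values above 0 (66.7%). For Ino80KD the median was then -0.066, with 4 of 20 values above 0 (20%). The median signal of Cyp entries in these deposited tables was below that of all entries (35.8 against 59.5 for Brg1KD, 32.9 against 62.7 for Ino80KD). Among Brg1KD entries above the deposited table's median signal, 71.9% of Cyp entries were above 0, against 48.7% of all. In the Ino80KD table these shares were 27.5% and 55.3%. The part of signal in the medians was not tested further, and the tables share the Control libraries.

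Run and single genes were both mostly above 0 in the table for Brg1KD, although the share of listed loops at single genes was lower there. The deposited table for Brg1KD had 94 of 146 entries of run genes (64.4%, median 0.12) and 32 of 39 of single genes (82.1%, median 0.14) above 0. The deposited table for Ino80KD had 68 of 147 entries of run genes (46.3%, median -0.025) and 12 of 42 of single genes (28.6%, median -0.13) above 0.

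By role, the steroid genes had 22 of 24 entries above 0 in the deposited Brg1KD table (median 0.18) and 8 of 21 in the deposited Ino80KD table (median -0.13). The xenobiotic families had 86 of 132 (median 0.11) and 61 of 136 (median -0.028) in these deposited tables. The retinoic acid genes had 1 of 4 (median -0.20) and 1 of 4 (median -0.049). The Cyp2s1 to Cyp2t4 run had 44 of 62 above 0 in the deposited Brg1KD table and 34 of 62 in that for Ino80KD. All 10 Cyp11a1 entries and all 5 Cyp17a1 entries were above 0 in the deposited Brg1KD table, with unadjusted p from 0.268 up.

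**Figure D4:**
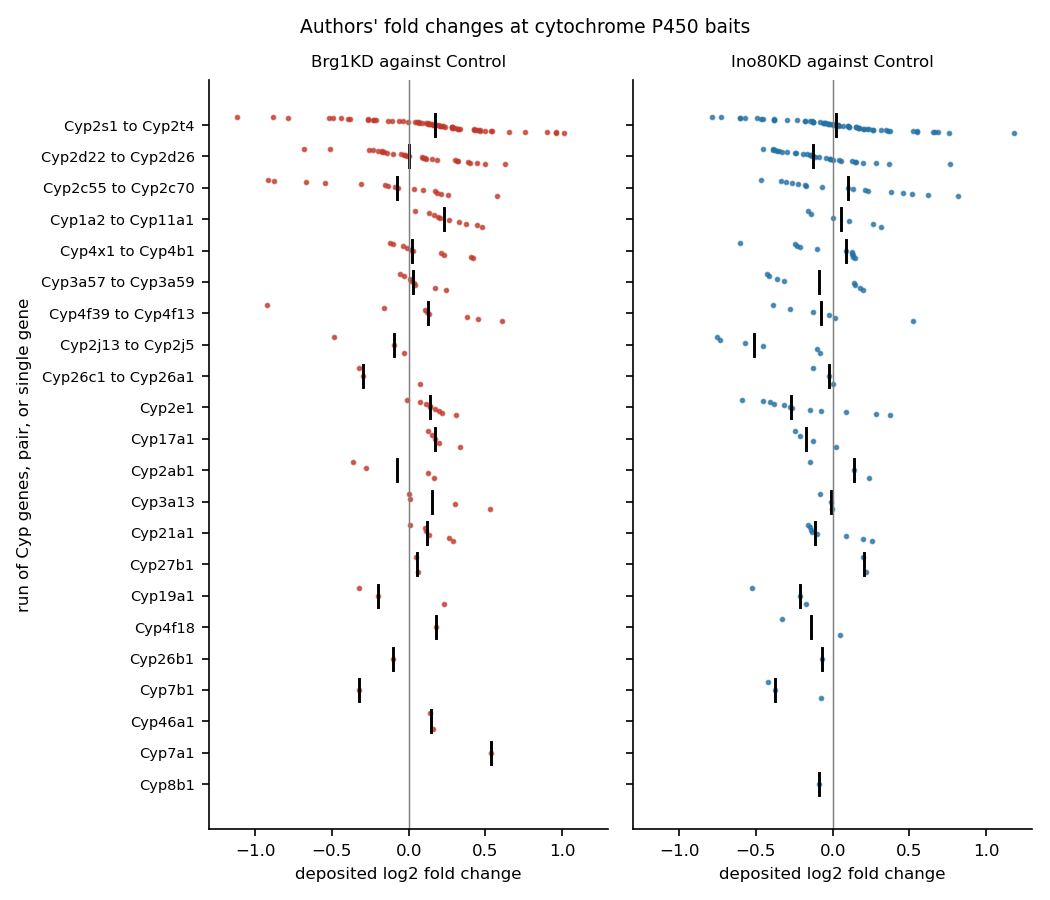
Log2 fold changes of Cyp entries in the authors' deposited tables, Brg1KD (left) and Ino80KD (right) against Control, by run, pair or single gene; points are entries and vertical bars medians. In the left panel most points of the Cyp2s1 to Cyp2t4 run, Cyp11a1 and Cyp17a1 lie above 0, and none passes the adjusted threshold.

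Among Cyp baits, the authors' deposited Brg1KD table had its smallest p for Cyp2t4 with chr7:26700001-26834184, the region of Cyp2b19 and Cyp2g1, at a log2 fold change of -0.88 ± 0.44 (unadjusted p = 0.0427, adjusted p = 1.00). An overlapping region of the same bait had -0.78 ± 0.44 in that deposited table. The next were Cyp2c70 with the Cyp2c55 region at -0.92 ± 0.51, Cyp4f15 at 0.45 ± 0.25 and Cyp4f17 at -0.92 ± 0.52 in the same deposited table. In contrast to Cyp2t4, the Cyp2b10 bait had 0.96 ± 0.62 with the same Cyp2b19 region in the authors' deposited table for Brg1KD (unadjusted p = 0.124), and Cyp2f2 had 0.14 ± 0.32. In the deposited Ino80KD table the 5 smallest belonged to Cyp4a14 (-0.60 ± 0.38), Cyp2j12 (-0.73 ± 0.47), Cyp2d10 (-0.46 ± 0.29), Cyp2a5 (1.18 ± 0.80) and Cyp2e1 (-0.59 ± 0.42), with unadjusted p from 0.112 to 0.162.

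For the loops that Brg1KD lists lacked, the authors' deposited table for Brg1KD gave Cyp26a1 with the Myof region -0.29 ± 0.23 and Cyp19a1 with the Gldn region -0.20 ± 0.23 (unadjusted p = 0.201 and 0.384), each taken from the region whose distance is nearest to that of the loop. An overlapping region farther out gave -0.32 ± 0.24 for Cyp26a1 and -0.32 ± 0.25 for Cyp19a1 in that deposited table, and a more distant region of Cyp19a1 gave 0.23 ± 0.54. In the deposited Ino80KD table the nearest regions had -0.13 ± 0.22 and -0.18 ± 0.23, and the overlapping ones 0.00078 ± 0.23 and -0.21 ± 0.24. These tables rest on the same libraries as the lists, so they are no second line of evidence. A loop missing from a list can be a contact just under the score minimum.

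Cyp baits carried more loops on average than the rest of the baits, and longer ones. Per listed bait there were 0.955 ± 0.124 loops at Cyp baits and 0.760 ± 0.0665 at all others (SD over 6 libraries), higher in 6 of 6 libraries (exact two-sided sign permutation p = 0.03125, the smallest 6 libraries allow; 0.0469 after Benjamini-Hochberg adjustment over 3 relations). The Cyp2s1 to Cyp2t4 run held 140 of the 439 listings on 11 baits, 2.12 loops per bait and library. The mean of single genes (1.24), the Cyp2d run (1.23) and the Cyp11a1 run (1.17) also lay above 0.760. The other runs (0.229 to 0.633) and the Cyp26 pair (0.583) lay below it. Single genes were uneven, with 28 of their 112 listings at Cyp2e1 (4.67 per bait) and 21 at Cyp17a1 (3.50). Cyp46a1, Cyp7a1, Cyp7b1, Cyp8b1, Cyp26b1, Cyp2r1 and Cyp4f18 lay below 0.760, and the other single genes with a bait above it. The same uneven mean is set against run genes below. The p-value covers the spread between libraries, not between genes. The difference without the Cyp2s1 to Cyp2t4 run was not tested. The share of loops over 250 kb was 71.3% ± 5.85 against 49.6% ± 3.59, higher in 6 of 6 libraries (exact sign permutation p = 0.03125, adjusted 0.0469). Run genes had fewer loops per bait than single genes (0.894 against 1.24), higher in 0 of 6 libraries with 1 tie (exact sign permutation p = 0.0625, adjusted 0.0625), which did not pass the test. The mean difference of -0.35 loops became -0.21 with baits at a start of the gene (exact permutation, adjusted p = 0.281) and -0.0035 per member gene in place of per bait (exact permutation, unadjusted p = 1; chosen after seeing the data), and it was -0.058 at a score of 7 or more and -0.050 at 10 or more. The difference between Cyp and other baits was not seen among stronger loops: at a score of 7 or more it was 0.0037 loops per bait (exact permutation, adjusted p = 0.844) and at 10 or more -0.017. The span difference was 22.2 percentage points at 7 or more (exact permutation, adjusted p = 0.0938) and 0.051 at 10 or more.

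Median spans of Cyp loops were 382 and 445 kb in Control, 299 and 378 kb in Brg1KD, and 374 and 422 kb in Ino80KD, against 219 to 280 kb for other loops. Distinct loops of run genes had a median of 455 kb and those of single genes 197 kb. Per library the medians at run genes were 328 to 526 kb, above those of other loops in every library. At single genes they were 172 to 267 kb, above those of other loops only in Brg1KD replicate 2 (267 against 259 kb). Over 6 libraries 252 of 320 listings at run genes (78.8%, 95% Wilson interval 73.9% to 82.9%, counting error only) had both ends in the run. Of the 289 distinct loops, 2 joined a pair of Cyp baits (0.692%). Per library, 0% to 3.49% of Cyp loops joined 2 baits of any kind, against 2.69% to 5.48% of all loops. The other end thus usually lay outside the listed baits, for Cyp loops and for all loops.

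**Figure D5:**
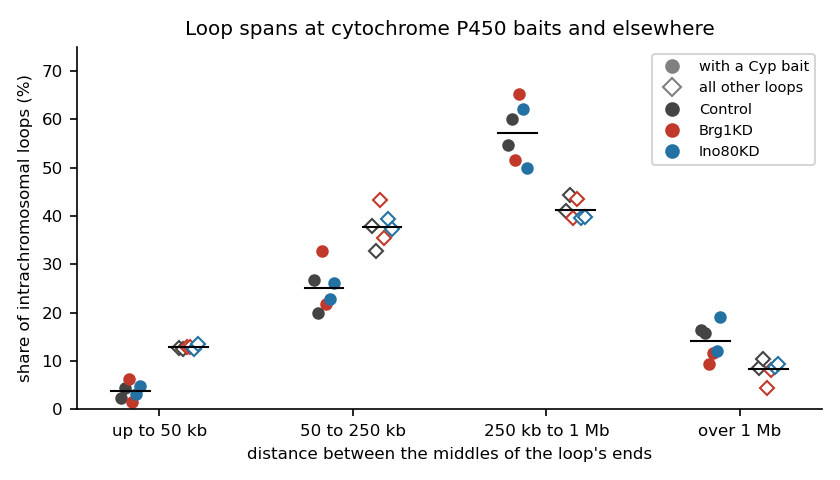
Share of intrachromosomal loops (%) in 4 span classes, for loops with a Cyp bait (filled circles) and all other loops (open diamonds), 1 point per library, with bars at the mean of 6 libraries. Cyp loops are fewer than others up to 50 kb and more frequent from 250 kb to 1 Mb in all 6 libraries.

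Cyp promoters differed from most promoters in sequence. RefSeq windows of 300 bases were found for 73 of the 93 genes (83 windows). The ratio of observed to expected CpG had a median of 0.152, against 0.384 over 32851 windows, and exceeded 0.6 in 6 (Cyp20a1, Cyp2r1, Cyp4v3, Cyp46a1, Cyp1b1 and Cyp26a1), 7.23% against 35.8%. None of the 64 windows of run genes exceeded it. The median CpG ratio was 0.121 at run genes and 0.305 at single genes. On both strands, TATAAA was present in 38.6% against 13.6% of all windows, AGGTCA in 26.5% against 16.3%, and AGTTCA in 15.7% against 14.0%. AGGTCA was in 21 of 64 windows of run genes and 1 of 17 of single genes, TATAAA in 26 and 5. Some windows overlap within a gene or are near copies within a run, so they are not independent.

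Promoter windows were also compared within each run. Run genes without a listed bait had a median identity of 90.7% between their promoter window and the closest one in the run (10 genes, 5 at 90% or more), against 75.7% for run genes with a bait (46 genes, 6 at 90% or more). Cyp2b9 and Cyp2b13 were 99.3% identical and Cyp2a4 and Cyp2a5 98.0%, and of these 4 genes Cyp2a5 had a listed bait. Of the genes without a bait, Cyp1a1, Cyp1a2, Cyp2j6 and Cyp2j8 had closest windows of 59.7% to 63.3% identity, and the part of identity in which genes had a listed bait was not tested. No source used here states how reads that map to several copies were treated, so contacts of Cyp2a5, of the Cyp3a genes and of other near copies are uncertain.

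A list of 44 genes of P450 pathways outside the symbol rule was taken for comparison. It held, among others, electron donors, receptors, retinoid enzymes, other steroid and drug enzymes, and the P450 genes Cyp51, Tbxas1 and Ptgis. Of the 44 genes, 31 had a bait. Their 51 baits had 50 and 49 loops in Control, 31 and 29 in Brg1KD, and 41 and 43 in Ino80KD. Both depletions lay below Control in number, and the Brg1KD lists were also the shortest. Before adjustment, p under 0.05 was reached in the authors' deposited table for Brg1KD by 0 of 105 entries in the higher and 5 in the lower direction (over all entries, 0.373% and 0.827%), and in that for Ino80KD by 2 of 110 in the higher and 0 in the lower direction (0.912% and 0.382%). None passed after adjustment. The 5 lower entries came from 2 genes, Nr5a1 (3) and Dhrs3 (2), and the 2 higher ones from Rara alone. Regions of a bait overlap, so these entries are not independent and do not speak for the list as a whole. In the authors' deposited Brg1KD table the lowest p-values were those of Dhrs3, a retinaldehyde reductase, at -0.58 ± 0.22 (unadjusted p = 0.00984) and Nr5a1, the steroidogenic factor that activates Cyp11a1 and Cyp17a1 in steroid-making tissue, at -0.82 ± 0.32 (unadjusted p = 0.0109). The authors' deposited Ino80KD table had its lowest for Rara, a retinoic acid receptor, at 0.45 ± 0.18 (unadjusted p = 0.0151).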

How the data were processed

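The 6 libraries and both comparison tables were used as deposited. The authors deposited 1 loop list per library with an interaction score from 5 up, and 2 comparison tables, whose columns per the file headers are mean signal, log2 fold change with its error, a test statistic (a score) and p-values. The loop caller: not given in the sources used here. The submitters' processing notes name mm10 and bedtools. No counts were in these files, so library values were compared with exact permutation tests and the deposited p-values were described.

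Loops were counted by identical ends with Python 3.11.15, pandas 2.3.3, numpy 2.4.6 and scipy 1.17.1. A loop counted once per library. The most listed bait, at chr2:98661117-98662976, was left out. Genes and promoters came from RefSeq (GRCm38.p6). The functions were tested on simulated data. Members, gene lists and tests were chosen with earlier results of these data known. Named genes were all runs, the up to 4 genes with most loops per role, the Cyp26 genes, the 5 smallest p-values per table, and genes of loops listed in all 6 libraries. Other genes named in lists of baits or loops were chosen after their values were seen. Alternatives covered baits, scores, denominators, spans, run gaps, libraries, batch and replicate block.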

Additional observations from a re-analysis of the deposited data

Results flagged for a closer look

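Loops between chromosomes were not part of the comparisons. Cyp baits had 9 such loops in Brg1KD replicate 1 and 5 in Ino80KD replicate 1, above the 3 and 2 of the Control libraries. Brg1KD replicate 2 had 3 and Ino80KD replicate 2 had 1, so the higher counts were in the batch 1 library of each depletion. Per 1000 interchromosomal loops these were 2.36 (95% Wilson interval 1.24 to 4.48) and 1.78 (0.760 to 4.16), against 1.10 and 0.680 in Control, and the intervals overlap. Brg1KD replicate 1 also had the most interchromosomal loops of all baits (3809, against 2405 to 2942 in the other libraries). Whether this bears on the Cyp count was not tested.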

How the results depend on the processing

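Of 190 recomputed values, 138 kept their direction and their side of the threshold, and 34 turned direction. None of the 9 comparisons of shares between groups could pass the threshold with 2 libraries a group, and most that turned lay near 1 as reported. Ratios with baits at a member's start were 0.993 (all Cyp, Brg1KD to Control), 1.01 (all, Ino80KD to Control), 1.02 (all, Ino80KD to Brg1KD) and 1.13 (single genes, Ino80KD to Brg1KD). Per 1000 of all loops they were 0.956, 1.01, 1.05 and 1.03 in that order, and 1.03 for run genes, Ino80KD to Brg1KD. By plain numbers they were 0.853 (all, Brg1KD to Control), 1.13 (all, Ino80KD to Brg1KD), 0.971 (runs, Brg1KD to Control), 1.11 (runs, Ino80KD to Brg1KD) and 1.10 (single, Ino80KD to Brg1KD). At a score of 10 or more they were 1.79 (all, Brg1KD to Control), 1.64 (all, Ino80KD to Control), 1.41 (runs, Ino80KD to Brg1KD), 0.315 (single, Ino80KD to Control) and 0.369 (single, Ino80KD to Brg1KD). In batch 1 they were 0.931 (all, Brg1KD to Control) and 0.932 (runs, Ino80KD to Control). With a gap of 100 kb they were 1.10 (runs, Ino80KD to Brg1KD) and 1.01 (single, Brg1KD to Control), and for loops of at most 1 Mb 1.03 (single, Ino80KD to Brg1KD). Leaving out the Cyp2s1 to Cyp2t4 run, an alternative added after seeing the data, gave 0.921 (all, Brg1KD to Control). Leaving out each library in turn gave, for all Cyp genes, 0.939 to 1.08 (Brg1KD to Control), 0.859 to 1.14 (Ino80KD to Control) and 0.853 to 1.13 (Ino80KD to Brg1KD). It gave 0.965 to 1.26 (runs, Ino80KD to Control), 0.843 to 1.11 (runs, Ino80KD to Brg1KD) and 0.829 to 1.10 (single, Ino80KD to Brg1KD). With the replicate block the ratio for all Cyp genes was 1.01 for Brg1KD and 0.990 for Ino80KD (exact sign permutation p = 1 for each), and no direction changed. The excess of Cyp loops per bait was 0.169 to 0.223, and that of the share over 250 kb 20.9 to 22.7 points, without each library in turn, where 5 libraries cannot pass. At a score of 7 or more these were 0.0037 and 22.2, and at 10 or more -0.017 and 0.051. The share of run listings inside their run was 87.9% at 7 or more, also added after seeing the data. The deposited Brg1KD median was 0.064 with 1 value per run or single gene, and 1 Cyp entry passed p under 0.05 before adjustment. The cause of these changes was not tested. Unknown depth, lists cut at a score minimum, 2 libraries per group and a batch shared by unequal numbers of groups limit all comparisons.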
